A study of Mus musculus with 8 samples.

Results

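Transcripts of 9 genes that mark the bile duct epithelium or build the simple keratins of liver were followed in whole liver of 5-week-old mice. The genes were taken by symbol from the deposited gene table: the keratin genes Krt7, Krt19, Krt8 and Krt18, the epithelial adhesion gene Epcam, the transcription factor gene Sox9, and Spp1, Prom1 and Cftr. Each stood on a single row, so the set holds 9 of the 19348 genes measured. There were 5 libraries from Stab1 knock-out mice and 3 from wild-type mice, all of liver tissue at 5 weeks of age. The knocked-out gene, Stab1, codes for the scavenger receptor stabilin-1, found on sinusoidal endothelial cells of liver and on some macrophages. Neither the strain nor the way the knockout was made is given in the labels.

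Cholangiocytes are the epithelial cells that line the bile ducts, and they make up a small part of the liver's mass. Hepatocytes build their intermediate filaments from keratin 8, a type II keratin, and keratin 18, its type I partner, and each of these polymerises only with a partner of the other type. Cholangiocytes hold the same pair together with keratin 7 (type II) and keratin 19 (type I), so Krt7 and Krt19 are used to tell ducts from hepatocytes. In a whole-tissue library, fewer cells of a type and less RNA per cell cannot be told apart.

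Uniquely mapped reads numbered 4.85 to 10.5 M in knockout and 10.1 to 10.8 M in wild-type libraries (M, mega). Levels are in CPM, reads per M reads of library total after scaling by TMM (trimmed mean of M values). Stab1 reads numbered 5 to 16 in knockout libraries, against 474 to 594 in wild-type libraries. Knockout library 1 stood apart: it was the shallowest, and it held 3 reads of Xist, a transcript of female cells, against 4445 to 8222 in the other 7 libraries, while Ddx3y, carried on the Y chromosome, had 320 reads there and 0 to 4 in the others. Sex is not named in the labels. Members and lists are therefore also given without that library where it moved a value by over 1.5 times or turned its sign. Libraries also differed in how evenly reads covered genes: among genes with 50 to 100 reads per kilobase, the median share of gene length covered was 87.4%, 83.5%, 87.2%, 84.8% and 85.5% in knockout libraries 1 to 5, against 89.2%, 88.8% and 85.3% in wild-type libraries 1 to 3.

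By level per gene length (TMM-scaled RPKM, reads per kilobase per M reads), the 9 genes fell into 3 tiers. Krt8 averaged 132 ± 8.31 RPKM in knockout and 113 ± 22.2 RPKM in wild-type liver (SD, n = 5 and 3), and Krt18 averaged 98.1 ± 19.0 RPKM in knockout and 105 ± 29.6 RPKM in wild-type liver. The ranges of these partner keratins overlapped over the 8 libraries. Spp1, which encodes the secreted phosphoprotein osteopontin, came next at 54.2 ± 15.8 RPKM in knockout and 32.2 ± 3.93 RPKM in wild-type liver, and its highest library, at 74.7 RPKM, lay just above the lowest value of Krt18, 71.3 RPKM.

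The second tier was made of Prom1, Krt19, Krt7, Sox9 and Epcam, whose means over the 8 libraries lay between 0.826 and 2.30 RPKM. None of these 5 was set apart from its neighbours in that order, since the ranges over libraries overlapped throughout. Cftr, the chloride channel gene of the bile duct surface, came last at 0 to 0.0883 RPKM. Hepatocyte markers were abundant beside them: 12 such genes summed to 93115 to 155847 CPM in knockout libraries, against 167507 to 179856 CPM in wild-type libraries.

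**Figure D1:**
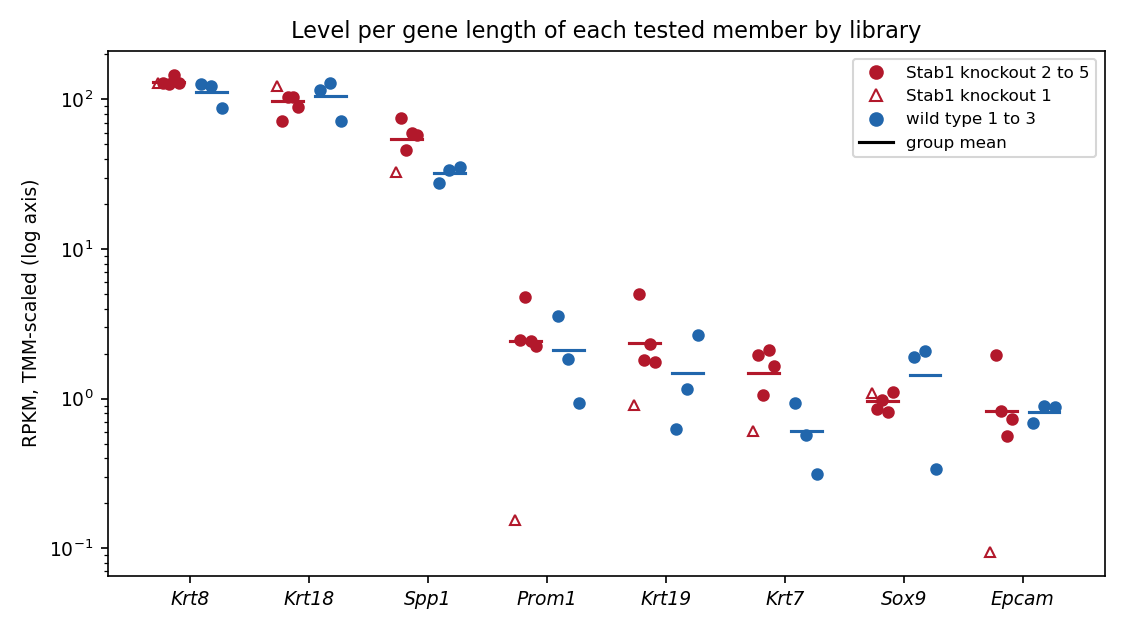
Level per gene length (TMM-scaled RPKM, log axis) of the 8 tested genes in each library, with Stab1 knockout at the left and wild type at the right of each gene; points are libraries, the open triangle is knockout library 1 and bars are group means. Krt8, Krt18 and Spp1 lie at or above 27.7 RPKM in every library, and the other 5 genes lie at or below 5.02 RPKM. Cftr, at 0 in 3 libraries, is not drawn.

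The 250 bases before the RefSeq gene start (GRCm38.p6) are shown for the keratin pair of hepatocytes, which lie next to each other with 0 protein-coding genes between them, and for Krt7 and Spp1, the members with the smallest p in the comparison of genotypes. RefSeq promoter windows were found for 7 of the 9 genes. Sequences run 5′ to 3′ in the direction of the gene, and capitals mark matches to the motifs named after them.
Krt8, chr15:102004343-102004592, minus strand: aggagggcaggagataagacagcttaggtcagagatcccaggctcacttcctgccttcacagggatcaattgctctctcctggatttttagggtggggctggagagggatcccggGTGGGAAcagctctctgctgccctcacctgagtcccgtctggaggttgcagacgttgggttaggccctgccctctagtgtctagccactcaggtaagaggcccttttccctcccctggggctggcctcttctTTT
Krt18, chr15:102027966-102028215, plus strand: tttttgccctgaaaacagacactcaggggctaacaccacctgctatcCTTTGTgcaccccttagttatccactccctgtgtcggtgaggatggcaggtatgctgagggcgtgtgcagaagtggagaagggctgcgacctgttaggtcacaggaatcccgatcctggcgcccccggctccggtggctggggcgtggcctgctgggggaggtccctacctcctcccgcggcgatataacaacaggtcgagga
Krt7, chr15:101412153-101412402, plus strand: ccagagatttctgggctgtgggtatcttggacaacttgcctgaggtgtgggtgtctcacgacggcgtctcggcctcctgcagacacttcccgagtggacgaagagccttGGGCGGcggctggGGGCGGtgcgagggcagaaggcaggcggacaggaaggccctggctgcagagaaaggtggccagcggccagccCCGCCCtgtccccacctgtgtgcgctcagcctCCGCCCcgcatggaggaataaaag
Spp1, chr5:104434861-104435110, plus strand: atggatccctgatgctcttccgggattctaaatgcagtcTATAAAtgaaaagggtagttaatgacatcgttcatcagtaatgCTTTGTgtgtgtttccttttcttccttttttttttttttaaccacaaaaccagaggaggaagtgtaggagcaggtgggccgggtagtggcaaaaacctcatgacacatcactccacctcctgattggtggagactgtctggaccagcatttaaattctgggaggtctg

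Motifs were searched on both strands in windows running from 250 bases before to 50 bases after the start, with matches of different motifs allowed to overlap. The RBPJ motif GTGGGAA, the letters bound by the Notch pathway's DNA-binding protein, stood at bases -135 to -129 from the Krt8 start, and 6.38% of the 32851 windows of the table hold it. The window of Krt7 held 4 copies of the GC box GGGCGG, a motif found in 35.7% of windows. The SOX motif ACAAAG matched once in Krt18 and once in Spp1 (18.7% of windows). TATAAA matched in Spp1 at bases -211 to -206, and on both strands across the start of Krt8, of which the closing capitals of that line are the first bases (13.6% of windows). The AP-1 motif TGANTCA (7.81% of windows) and the TEAD motif GGAATG (14.7%) did not match in these 4 windows, which says only that those letters are not there.

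The comparison of genotypes asks whether loss of stabilin-1 goes with other levels of these transcripts. Of the 9 genes, 8 had enough reads for the test (edgeR's quasi-likelihood test with Benjamini-Hochberg adjustment over 12338 genes), and 0 of 8 were called at an adjusted p below 0.05. Over all tested genes 0.227% were called, 28 in number, with 0.0729% called higher and 0.154% called lower in knockout liver. At an unadjusted p below 0.05 stood 2 of the 8, Spp1 and Krt7, both higher in knockout liver, against 13.6% of all tested genes. DESeq2's Wald test on all libraries called 0 of the 8, against 0.883% of genes. Of the 8 log2 fold changes, 6 were positive, with a median of 0.23, against a median of -0.01 over all tested genes. Without knockout library 1 the 8 had a median of 0.39, with 6 positive, against -0.02 over all genes of that fit.

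Krt8, the type II keratin of hepatocytes and ducts, was at 231, 231, 230, 264 and 232 CPM in knockout libraries 1 to 5, against 230, 224 and 157 CPM in wild-type libraries 1 to 3. Knockout libraries lay within a narrow band with knockout library 4 above it, wild-type library 3 lay far below, and wild-type library 1 lay level with the lower edge of the band. Its log2 fold change was 0.22 (SE 0.16, edgeR adjusted p = 0.509). Without wild-type library 3 it was 0.070.

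Krt18, the type I partner, was at 171, 99.8, 146, 145 and 125 CPM in knockout libraries, against 161, 181 and 101 CPM in wild-type libraries. The groups overlapped throughout, with a low library in each. The log2 fold change was -0.10 (SE 0.22, edgeR adjusted p = 0.835), and its sign turned without wild-type library 2, to 0.060. Without knockout library 1 it was -0.20.

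The ratio of Krt8 to Krt18 reads per gene length within a library does not depend on the scaling of libraries. It was 1.05, 1.80, 1.22, 1.42 and 1.44 in knockout libraries 1 to 5, against 1.11, 0.958 and 1.21 in wild-type libraries 1 to 3. Knockout library 1 lay within the wild-type range and the other 4 lay above it, knockout library 3 only just. The mean was 1.39 ± 0.282 in knockout and 1.09 ± 0.125 in wild-type liver (SD, n = 5 and 3). On the log2 scale (prior count of 2 reads) the difference was 0.33, not past the threshold in a two-sided exact permutation test with 56 divisions (p = 0.161, where the smallest possible is 0.0179). Without knockout library 1 it was 0.42 (exact permutation p = 0.0571 over 35 divisions, where the smallest possible is 0.0286). The ratio was lowest in wild-type library 2, knockout library 1 and wild-type library 1, the 3 libraries with the most even coverage, and highest in knockout library 2, the one with the least. The part of coverage in this ratio was not tested.

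**Figure D2:**
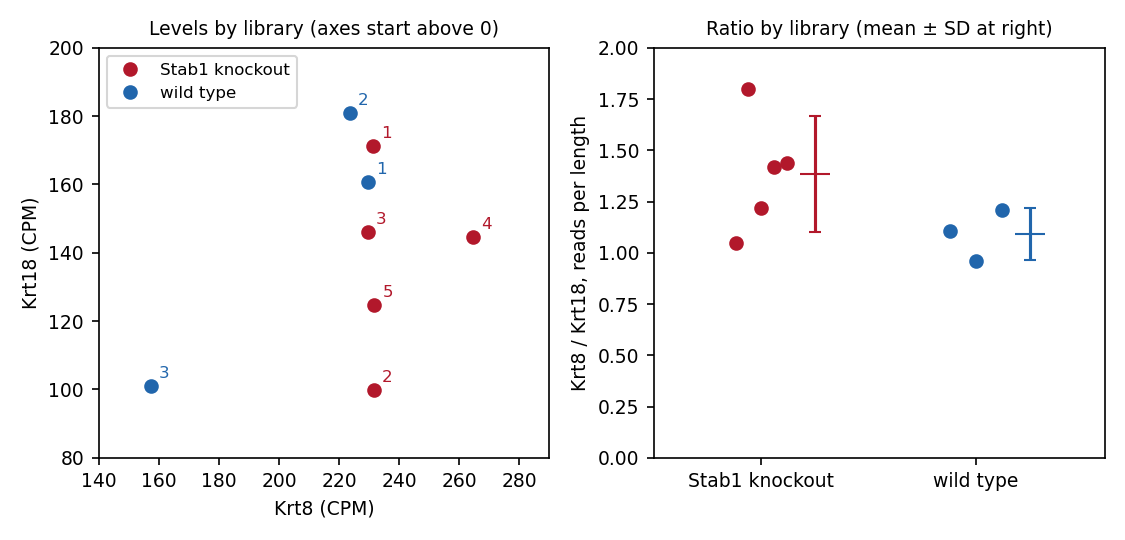
Left, Krt18 against Krt8 level (CPM) in each library, numbered by replicate; right, the ratio of Krt8 to Krt18 reads per gene length in each library of Stab1 knockout and wild-type liver, with mean ± SD beside the points. Krt8 lies between 224 and 232 CPM in 6 of 8 libraries while Krt18 runs from 99.8 to 181 CPM, and the ratio is highest in knockout library 2, at 1.80.

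Across the 8 libraries, log2 levels of Krt8 and Krt18 gave Pearson's r = 0.48 (exact permutation p = 0.263) and Spearman's rho = -0.29 (exact permutation p = 0.501), of opposite sign. Without knockout library 4 and wild-type library 3, the 2 farthest from the median of Krt8, r was -0.61 (exact permutation p = 0.201). The positive Pearson coefficient rested on those libraries. Of the 2 other relations computed, Krt7 with Krt19 gave r = 0.37 and rho = 0.33 (exact permutation p = 0.364 and 0.428), and r = 0.76 without the same 2 libraries (p = 0.0806, exact). Epcam with Krt19 gave r = 0.63 and rho = 0.55 (exact permutation p = 0.0851 and 0.171), and r = 0.02 without knockout libraries 1 and 2 (exact p = 0.975). Adjusted over the 3 relations, the p-values of r were 0.364, 0.364 and 0.255.

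Spp1 was at 49.6, 113, 69.6, 91.2 and 87.7 CPM in knockout libraries 1 to 5, against 42.1, 51.3 and 53.2 CPM in wild-type libraries 1 to 3. Knockout library 1 fell among the wild-type libraries and the other 4 lay above all of them. Spp1 averaged 82.3 ± 24.0 CPM in knockout libraries, against 48.9 ± 5.96 CPM in wild-type ones (SD, n = 5 and 3). Its log2 fold change was 0.75, with SE 0.24 and an edgeR adjusted p of 0.327. Without knockout library 1 the log2 fold change was 0.88 (SE 0.18, edgeR adjusted p = 0.0540), a fit in which 0.928% of genes were called and 25.5% had an unadjusted p below 0.05. DESeq2's Wald test without that library, added once values had been seen, called Spp1 higher (adjusted p = 8.53e-04) in a fit that called 8.59% of genes in either direction and 5.51% as higher.

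Krt7, the type II keratin that separates ducts from hepatocytes, was at 0.976, 3.12, 1.70, 3.39 and 2.65 CPM in knockout libraries, against 1.51, 0.921 and 0.5003 CPM in wild-type libraries. These levels stand for 5, 28, 18, 32 and 23 reads in knockout libraries, against 16, 10 and 5 in wild-type libraries. As for Spp1, knockout library 1 lay within the wild-type range and the other 4 lay above it. The log2 fold change was 1.29 (SE 0.45, edgeR adjusted p = 0.333), and 1.44 without knockout library 1 (SE 0.40, edgeR adjusted p = 0.0836), where DESeq2's Wald test called it (adjusted p = 0.0316). The share of Krt7 length with reads was 15.3% to 59.1% in knockout libraries, against 11.9% to 36.5% in wild-type ones.

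Without knockout library 1, all 4 remaining knockout libraries lay above all wild-type libraries for Krt8, Krt7 and Spp1, 3 of 8 genes, against 9.25% of the genes tested in that fit; for 0 of 8 did they lie below, against 8.99% of genes. With all libraries this held for Krt8 alone, by 229.56 CPM in knockout library 3 against 229.51 CPM in wild-type library 1, against 3.03% of genes, and for 0 of 8 did all knockout libraries lie below, against 3.62% of genes. The separation of Krt8 rested on the scaling. In the deposited RPKM, knockout libraries 2 and 5 were at 124.7 and 124.5, against 126.4 in wild-type library 1. The 9.25% and 8.99% come from scaling without knockout library 1, and the member counts from the scaling of all libraries.

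Among knockout libraries, Spp1 and Krt7 were higher where coverage was less even. The knockout libraries with the lowest coverage, libraries 2, 4 and 5, had the 3 highest values of both genes. Wild-type library 3, at 85.3% coverage, was an exception, with the lowest level of Krt7 and 53.2 CPM of Spp1. With coverage evenness as a covariate, a fit added once values had been seen, the log2 fold change was 0.36 (SE 0.20, edgeR adjusted p = 0.930) for Spp1 and 1.04 (SE 0.59, edgeR adjusted p = 0.930) for Krt7. Wild-type libraries 1 and 2 were the most evenly covered of all, so this fit cannot fully tell coverage and genotype apart.

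**Figure D3:**
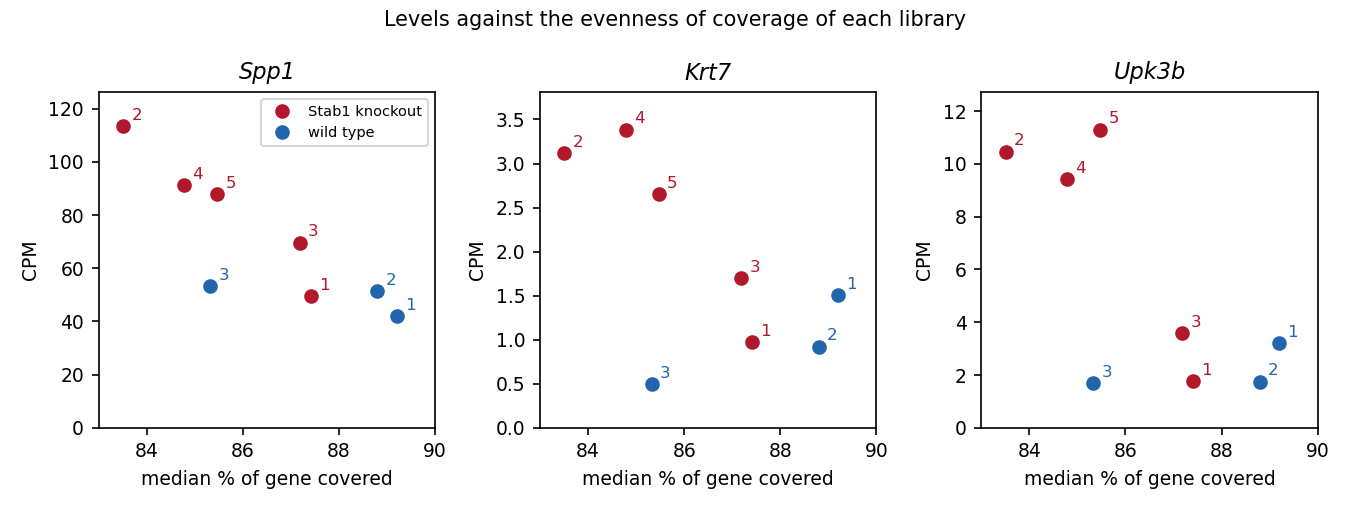
Levels (CPM) of Spp1, Krt7 and the mesothelial gene Upk3b in each library, numbered by replicate, against the median percent of gene length covered among genes with 50 to 100 reads per kilobase in that library. Stab1 knockout libraries 2, 4 and 5, at 83.5% to 85.5% coverage, hold the highest levels of all 3 genes, and wild-type library 3, at 85.3%, has the lowest Krt7 and Upk3b of the wild-type libraries and the highest Spp1, 53.2 CPM.

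Mesothelial cells, which cover the liver's surface, also contain keratins 7, 8, 18 and 19, so their markers were set beside Krt7. Of 8 markers 7 were in the table and 5 were tested; all 5 had positive log2 fold changes with a median of 1.26, 0 were called, and 3 had an unadjusted p below 0.05. Upk1b, a uroplakin gene, stood at a log2 fold change of 2.52 with SE 0.65 (edgeR adjusted p = 0.264), and Upk3b one of 1.73 (SE 0.55, adjusted p = 0.327). Msln, which encodes mesothelin, was at 1.012 and Lrrn4 at 1.26. The summed level of the markers was 9.37, 39.6, 14.2, 38.3 and 26.3 CPM in knockout libraries 1 to 5, against 12.2, 10.9 and 8.21 CPM in wild-type libraries 1 to 3. The order of the 5 knockout libraries in this sum was the same as in Krt7 but for libraries 2 and 4, which changed places. It was the same as in Spp1 for all 5, and the reverse of their order in coverage evenness. The order was thus not particular to Krt7, and 664 of 12330 genes compared had a Pearson's r above 0.9 with Spp1 over the 8 libraries. The part of mesothelial RNA in the level of Krt7 was not tested.

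Spp1 is made by cholangiocytes and also by some macrophages. Of 12 macrophage markers 10 were tested, 7 were positive with a median log2 fold change of 0.30, and 0 were called. The median was 0.15 without knockout library 1, with 8 of 11 positive. Clec4f, a lectin of Kupffer cells, stood at a log2 fold change of 0.44 with SE 0.19 (edgeR adjusted p = 0.356), Lyz2 of 0.34, Cd9 of 0.40 and Timd4 of 0.37. The 3 negative ones were Csf1r at -0.10, Cd68 at -0.02 and Marco at -0.14. Without knockout library 1 these were at -0.33, -0.28 and -0.12. Together these markers summed to 512 to 719 CPM in knockout libraries, against 432 to 597 CPM in wild-type ones. Gpnmb, a gene of lipid-laden macrophages, held 1 to 12 reads in a library.

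Krt19, the type I keratin of ducts, was at 1.37, 7.57, 2.73, 3.49 and 2.65 CPM in knockout libraries 1 to 5, against 0.943, 1.75 and 4.003 CPM in wild-type libraries 1 to 3. The groups overlapped: wild-type library 3 lay above every knockout library but library 2. The log2 fold change was 0.71 (SE 0.56, edgeR adjusted p = 0.550). It was 0.25 without knockout library 2, 0.34 with wild-type library 1 left out and 1.42 with wild-type library 3 left out.

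Epcam, the epithelial cell adhesion gene that hepatocytes of the grown liver lack, was at 0.195, 4.01, 1.70, 1.16 and 1.499 CPM in knockout libraries, against 1.42, 1.84 and 1.80 CPM in wild-type libraries. It held 1 read in knockout library 1 and 36 in knockout library 2, which lay at the ends of the range, with the wild-type libraries between them. The log2 fold change was 0.08 (SE 0.55, edgeR adjusted p = 0.951) and turned to -0.46 without knockout library 2. Without knockout library 1 it was 0.30.

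Prom1, which encodes the membrane protein prominin-1 of ducts and progenitor cells, was at 0.586, 9.24, 18.1, 9.10 and 8.42 CPM in knockout libraries, against 13.5, 6.90 and 3.50 CPM in wild-type libraries. The low end was knockout library 1, with 3 reads, and the other 7 libraries lay between 3.50 and 18.1 CPM. The groups overlapped (log2 fold change 0.23, SE 0.64, edgeR adjusted p = 0.877). Without knockout library 3, the highest, it was -0.17, without knockout library 1 it was 0.49, with wild-type library 1 left out it was 0.84, and with wild-type library 3 left out it was -0.12.

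Sox9, the transcription factor that cholangiocytes and some periportal hepatocytes share, had the reverse layout. It was at 4.49, 3.56, 4.05, 3.39 and 4.61 CPM in knockout libraries, against 7.92, 8.65 and 1.40 CPM in wild-type libraries. The 5 knockout libraries lay close together between 2 high and 1 low wild-type libraries. The log2 fold change was -0.59 (SE 0.44, edgeR adjusted p = 0.536), and without wild-type library 3 it was -1.05 (SE 0.20, adjusted p = 0.0561). Leaving out wild-type library 1 gave -0.33, and leaving out wild-type library 2 gave -0.24.

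Cftr held 0, 5, 0, 3 and 2 reads in knockout libraries, against 0, 6 and 2 reads in wild-type libraries, too few for the test across genes. Over groups the ratio of its CPM levels was 0.918, with an exact 95% interval of 0.326 to 2.68 that covers counting error only. Without knockout library 1 the difference of mean log2 CPM was 0.12, and with all libraries it was -0.088. An exact two-sided permutation test on log2 CPM gave p = 1.0. At this depth a difference in Cftr within the counting interval was not detectable. A level of 3 reads stands for 0.276 to 0.586 CPM, depending on the library.

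**Figure D4:**
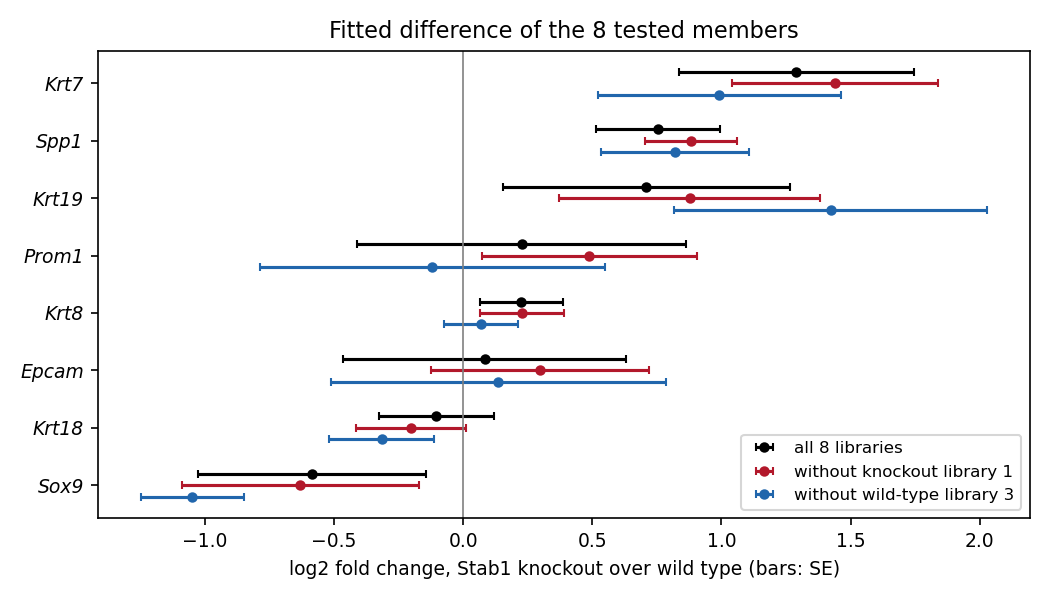
Log2 fold change (Stab1 knockout over wild type, bars are SE) of the 8 tested genes with all libraries, without knockout library 1 and without wild-type library 3, from edgeR's quasi-likelihood fit. Krt7 and Spp1 stay positive in the 3 fits, Sox9 stays negative, and Prom1 changes sign.

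Other transcripts of the duct epithelium were described by a list of 24 genes. Of these 15 had enough reads, 7 positive and 8 negative, with a median log2 fold change of -0.02 and 0 called. Without knockout library 1 the median had the other sign, at 0.15, with 9 of 16 positive and 0 called. Among those with the smallest p, log2 fold changes were negative for Pkhd1, the fibrocystin gene of the primary cilium, at -0.53 (SE 0.20, edgeR adjusted p = 0.336), Atp1b1, a sodium pump subunit, at -0.40, and Slc4a2, an anion exchanger, at -0.31. The 24 genes summed to 295 to 446 CPM in knockout libraries, against 354 to 417 CPM in wild-type ones. Most of this was Aqp1, Cdh1, Atp1b1 and Slc4a2, with means of 118, 68.1, 55.1 and 33.2 CPM in knockout and 110, 91.8, 72.8 and 41.0 CPM in wild-type libraries. Krt19 averaged 3.56 and 2.23 CPM. The highest sum, in knockout library 2, held 88.6 CPM of Dmbt1. The part of duct cells in this sum was not tested.

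Knockout library 2 held the highest level of Krt19 and Epcam, and with them the highest levels of Dmbt1, Cd24a, Muc1 and Tspan8, genes of the duct list chosen after their values were seen. Dmbt1, which encodes a mucosal scavenger glycoprotein, was at 0, 88.6, 6.03, 0 and 0.461 CPM in knockout libraries 1 to 5, against 0.189, 0.184 and 24.8 CPM in wild-type libraries 1 to 3. Cd24a, a surface sialoglycoprotein gene, was at 14.8 CPM in knockout library 2 and 1.76 to 6.23 CPM in the other knockout libraries, against 7.30 CPM in wild-type library 3 and 1.93 and 2.74 CPM in the other wild-type libraries. Muc1 was at 5.46 CPM and Tspan8 at 6.12 CPM in knockout library 2, against at most 2.001 CPM of Muc1 and 1.70 CPM of Tspan8 in any wild-type library. Knockout library 2 and wild-type library 3 were the highest of their genotype in Dmbt1, Cd24a, Muc1, Tspan8 and Krt19, while for Epcam wild-type library 2 was at 1.84 and wild-type library 3 at 1.80 CPM. Sox9 and Krt7 did not follow: they were lowest in wild-type library 3. Other genes of the duct list were mixed. Cdh1 was at 47.4 CPM in knockout library 2 and 49.5 CPM in wild-type library 3, against 102 and 124 CPM in wild-type libraries 1 and 2. Pkhd1 was at 8.02 CPM in knockout library 2, against 7.51 to 10.7 CPM in the other knockout libraries. Among wild-type libraries, library 3 was lowest in Slc4a2, at 38.9 CPM, and highest in Atp1b1, at 77.4 CPM.

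**Figure D5:**
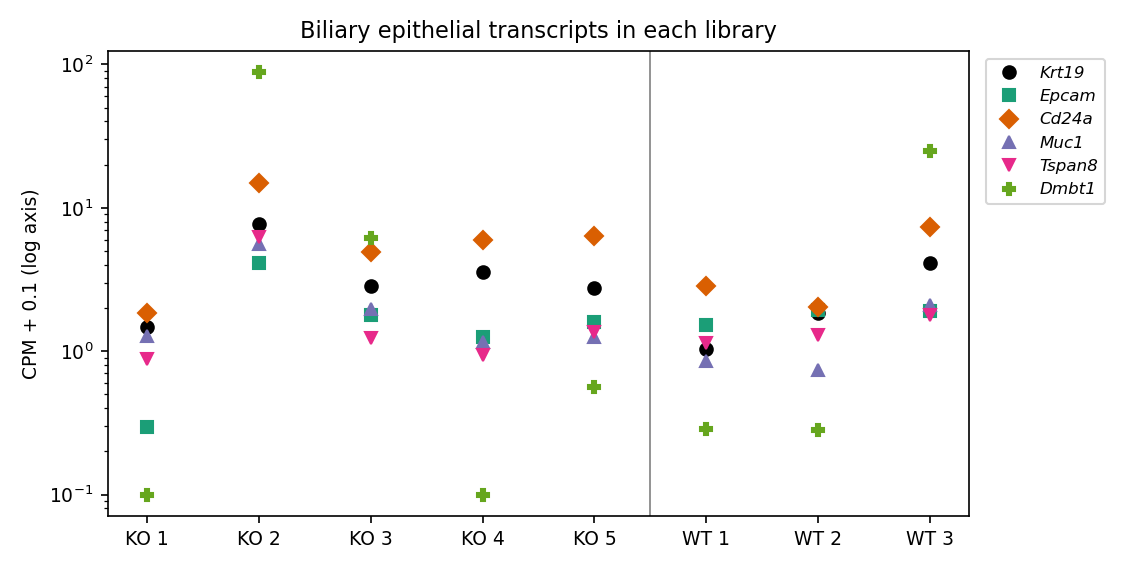
Levels of Krt19, Epcam, Cd24a, Muc1, Tspan8 and Dmbt1 (CPM plus 0.1, log axis) in the 5 Stab1 knockout (KO) libraries, left of the line, and the 3 wild-type (WT) libraries, right of it. KO library 2 is the highest for all 6 genes and WT library 3 is the highest wild-type library for 5 of them, all but Epcam. Cd24a, Muc1, Tspan8 and Dmbt1 were chosen from the duct list after their values were seen.

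Markers of other epithelia that hold the same keratins were set beside these values. Of 9 markers of exocrine pancreas 8 were in the table, 2 of them at 0 reads in all libraries; Prss2 and Pnlip had at most 2 reads in a library. Ctrb1, the chymotrypsinogen gene, held 0, 20, 2, 0 and 5 reads in knockout libraries 1 to 5, against 2, 4 and 10 reads in wild-type libraries 1 to 3, and was the highest of each genotype in knockout library 2 and wild-type library 3. The 2 tested, Cela1 and Cela2a, had log2 fold changes of 0.87 (SE 0.27, edgeR adjusted p = 0.321) and 1.21 (SE 0.41, adjusted p = 0.332), and Cela1 was at 83.8 CPM in knockout library 2, against 23.7 to 32.4 CPM in wild-type libraries. The 9 markers of gallbladder and gut epithelium summed to 11.0 to 27.7 CPM in knockout libraries, against 9.53, 10.3 and 44.4 CPM in wild-type libraries 1 to 3. Lgals4, the galectin-4 gene, made up most of the highest sums: it was at 22.5 CPM in knockout library 5 and 5.07 to 11.0 CPM in the other knockout libraries, against 40.7 CPM in wild-type library 3 and 4.34 and 4.69 CPM in wild-type libraries 1 and 2. Of the 9 markers 4 were tested and 0 were called, and Vil1, which encodes the microvillus protein villin, stood at 1.67 on the log2 scale with SE 0.52 (edgeR adjusted p = 0.327). The median log2 fold change of the 4 was 0.066, and -0.039 without knockout library 1. Cdx2, a factor that defines gut epithelium, was at 0 reads, and Tff2 and Krt20 held 0 to 4 reads in a library. The part of such cells in the values of knockout library 2 and wild-type library 3 was not tested.

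The table held 43 genes named as keratins. Beside the 4 members, 39 were present, 23 of them at 0 reads in every library, and 2 passed the filter on low counts. Krt10, a keratin best known from skin, was at 1.37, 3.79, 1.98, 3.70 and 2.54 CPM in knockout libraries, against 1.604, 1.47 and 1.70 CPM in wild-type libraries (log2 fold change 0.77, SE 0.34, edgeR adjusted p = 0.363). Knockout library 1 lay below the wild-type libraries and the other 4 above. Krt23, a type I keratin, averaged 1.09 ± 0.520 CPM in knockout libraries, against 0.869 ± 0.387 CPM in wild-type ones (SD, n = 5 and 3; log2 fold change 0.32, edgeR adjusted p = 0.757).

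Of 14 genes whose proteins anchor or accompany keratin filaments 12 were tested, with 3 positive and 9 negative, with a median log2 fold change of -0.21 and 0 called. Without knockout library 1 the median was -0.33, with 4 of 12 positive. Ppl, which encodes the desmosomal linker periplakin, was at 7.42, 9.69, 8.10, 9.31 and 10.8 CPM in knockout libraries 1 to 5, against 23.8, 20.6 and 9.21 CPM in wild-type libraries 1 to 3 (log2 fold change -0.97, SE 0.27, edgeR adjusted p = 0.297). Without wild-type library 3, which lay among the knockout libraries, it was -1.28 and called (edgeR adjusted p = 0.0154). Eppk1, the gene of the keratin-binding protein epiplakin, was at 30.1, 13.3, 9.42, 11.8 and 16.3 CPM in knockout libraries, against 6.41, 7.55 and 9.21 CPM in wild-type libraries, with knockout library 3 just above wild-type library 3 and no overlap, as for 3.03% of genes (log2 fold change 1.04, SE 0.35, adjusted p = 0.332). Pkp2 and Lmnb1 had log2 fold changes of -0.24 and -0.64.

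Notch signalling and the coactivator YAP direct the duct fate in liver development. Of 13 tested Notch genes 3 were positive and 10 negative, with a median of -0.15 and 0 called; without knockout library 1 the median was -0.25. Heyl, a Notch target, was at 1.37, 1.45, 3.67, 1.90 and 1.38 CPM in knockout libraries, against 7.92, 6.26 and 2.001 CPM in wild-type libraries (log2 fold change -1.42, SE 0.45, edgeR adjusted p = 0.327). Its wild-type library 3 lay among the knockout libraries, as for Ppl. Notch4, Dll1 and Rbpj had log2 fold changes of -0.54, -0.51 and -0.19. Of 11 tested genes of the YAP and TEAD list, 5 were positive with a median of -0.04, and 0 were called; without knockout library 1 the median was -0.11. Cyr61, a YAP target, was at 11.7, 11.5, 12.2, 11.7 and 14.3 CPM in knockout libraries, against 8.21, 8.29 and 5.40 CPM in wild-type libraries, with no overlap, as for 3.03% of genes (log2 fold change 0.75, SE 0.18, edgeR adjusted p = 0.254). Ctgf, Amotl2 and Axl of the same list had log2 fold changes of -0.05, -0.04 and -0.25. Tead1, Yap1 and Wwtr1 had log2 fold changes of -0.45, -0.27 and 0.33.

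Markers of stellate cells, which lie along the sinusoids, and of portal fibroblasts, which lie around the ducts, gave no calls among the 10 and 5 tested. In the stellate list 9 of 10 were negative with a median of -0.29 (3 of 10 were positive without knockout library 1), with Reln, which encodes reelin, at -0.48 (SE 0.13, edgeR adjusted p = 0.293). All 5 portal fibroblast markers were positive with a median of 0.28, with Cd34 at 0.92. Among 12 hepatocyte markers 4 were positive and 8 negative, with a median of -0.16 (-0.26 without knockout library 1) and 0 called. Alb, the albumin gene, the most abundant of them, stood at -0.50 (edgeR adjusted p = 0.370), Apoa1 at 0.32 and Apoa2 at 0.43. Tat, tyrosine aminotransferase, had a log2 fold change of -0.998 with SE 0.26 (edgeR adjusted p = 0.264).

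The genes whose log2 levels were most like those of Krt8 over the 8 libraries were Cd83, Pecr and Ticam1 (Pearson's r = 0.966, 0.956 and 0.946), and 16 of 12330 genes compared had an r above 0.9. For Spp1 they were Med21, Ppdpf and 2210016F16Rik (r = 0.995, 0.986 and 0.983), and 664 of 12330 genes had an r above 0.9, so the layout of Spp1 over libraries was shared with many genes.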

How the data were processed

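RNA of mouse liver was sequenced in 5 Stab1 knockout and 3 wild-type libraries, grouped and numbered by the sample labels. For the aligner, counting method, strandedness, genome build and annotation, nothing is stated in the labels or headers. The table that the authors deposited has 19464 rows and holds, per the file headers, the count of uniquely mapped reads per gene, the percent of gene length covered and RPKM for each library. The deposited RPKM values equal those recomputed from counts, gene lengths and totals, to a relative difference below 1e-09. The deposited percent of coverage was used to compare libraries. Dashes were read as 0, and the 229 rows of 113 repeated identifiers were summed, giving 19348 genes.

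The deposited counts went into edgeR 4.0.16 under R 4.3.3: filterByExpr, TMM scaling and the quasi-likelihood F test of knockout against wild type over 12338 genes, adjusted by the Benjamini-Hochberg method. SE is the log2 fold change divided by the square root of F. The test was checked on simulated counts. Alternatives were DESeq2 1.42.0, each library left out in turn, a block for replicate number, other scalings, no filter and a gene length offset. Exact permutation tests and correlations used log2 CPM with a prior count of 2. Separate animals are not named in the labels, so the p-values reflect variation among libraries that may be technical in part. Knockout library 1, by its Xist and Ddx3y reads, did not share an animal with the other knockout libraries. Every pair of libraries differed by more than sampling noise. By chi-square per gene, wild-type library 3 differed less from knockout libraries 3, 4 and 5 (20.6, 26.9 and 36.2) than from its own group. Its values were 49.4 and 44.7 against wild-type libraries 1 and 2, which differed from each other by 10.7. The departures of wild-type library 3 were thus not confined to the genes described here.

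The 9 genes and the lists set beside them were chosen with earlier results of these data known. Of 132 list entries 130 matched a gene, directly or through the RefSeq table of GRCm38.p6, which was used for names, neighbours and promoters only. Named genes are the 9 members, Stab1, other tested keratins, up to 4 genes of each list with the smallest p, and the 3 tested genes most like Krt8 and Spp1. Of these, 1 gene is not reported here. For the lists of stellate cells, portal fibroblasts, pancreas, gut and hepatocytes fewer than 4 are named. Gpnmb, Csf1r, Cd68, Marco, Cd5l, Aqp1, Ctgf, Amotl2, Axl, Alb, Apoa1, Apoa2, Lgals4, Ctrb1, Prss2, Pnlip, Cdx2, Tff2, Krt20, Dmbt1, Cd24a, Muc1, Tspan8 and Cdh1 are named outside this rule, chosen after their values were seen. Figures were drawn with matplotlib 3.10.9.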

Additional observations from a re-analysis of the deposited data

Results flagged for a closer look

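Among the 5 knockout libraries, the gap of the highest or lowest library to its neighbour was tested for each of the 9 genes. The same was done for the 32 other genes that the naming rule took from the lists. In 5 of 41 such groups of values the gap, as a share of the range, was above Dixon's 95% critical value of 0.71, which chance exceeds in about 1 in 20. Krt8 was at 264 CPM in knockout library 4, against 232 CPM in the next library. Cela1 was at 83.8 CPM in knockout library 2, against 46.7 CPM in the next. Heyl was at 3.67 CPM in knockout library 3, against 1.90 CPM in the next. Cyr61 was at 14.3 CPM and Tead1 at 19.3 CPM in knockout library 5, against 12.2 and 13.9 CPM in the next. Groups of 3 libraries, such as the wild-type group, were not examined this way. Nor were Stab1, the genes most like Krt8 and Spp1, or genes named outside the rule, such as Dmbt1, Muc1 and Tspan8. The cause of these values was not tested.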

How the results depend on the processing

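Of the 9 genes, 0 were called by edgeR with all libraries, with any single library left out and under every other setting tried except DESeq2's Wald test without knockout library 1, chosen after seeing the data, which called 2 (Spp1 and Krt7). The number of genes called over all genes was 28, and lay between 13 and 114 when libraries were left out singly (114 without knockout library 1 and 93 without wild-type library 3). It was 130 by DESeq2's Wald test and 1058 by that test without knockout library 1; 28 and 27 of the 28 were among them. The replicate numbers are shared between groups, but same-numbered libraries did not deviate together (correlations of 0.12, -0.15 and -0.15 for numbers 1 to 3). With the replicate number as a block in libraries 1 to 3 of both groups, 8 genes and 0 members were called. Over 17 alternatives, 124 of 136 values of the 8 tested members kept their direction and side of the threshold, 2 came to pass it and 10 turned sign. Among the 32 other genes that the naming rule took from the lists, 13 of 542 values came to pass it: Ppl and Tat without wild-type library 3, Upk1b and Tat by DESeq2's Wald test, and Cyr61, Ppl, Upk1b, Upk3b, Msln, Reln, Cd34, Cela1 and Tat by that test without knockout library 1. Leaving out single libraries gave log2 fold changes of -0.46 to 0.30 for Epcam, -0.17 to 0.84 for Prom1 and -0.31 to 0.060 for Krt18. With coverage evenness as a covariate, a fit added once values had been seen, Sox9 turned to 0.32, Krt19 to -0.21, Krt18 to 0.28 and Epcam to -0.58, and among other genes Krt23 turned to -0.18 and Lmnb1 to 0.023. Without knockout libraries 1 and 2, also chosen afterwards, Epcam was at -0.21. Leaving out single libraries also gave log2 differences of -0.55 to 0.37 for Cftr and 0.23 to 0.42 for the Krt8 to Krt18 ratio. The cause of these changes was not tested. Depth limits Epcam, Krt7, Krt19 and Cftr, which held at most 68 reads in a library.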
